A study of Mus musculus with 3 samples.

Results

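The cells described here are urothelial cells of the mouse bladder with a high share of Rgs5, Ttr and Unc13c transcripts. Candidate cells had at least 500 genes, at most 20% mitochondrial UMIs (unique molecular identifiers, each standing for 1 captured transcript), at least 10000 UMIs and at least 0.2% of UMIs from the uroplakin genes Upk1a, Upk1b, Upk2 and Upk3a. Within each library the 10% of candidates with the highest summed share of Rgs5, Ttr and Unc13c were taken and are called high cells, and all other candidates of that library are called the rest. This gave 1273 high cells of 12728 candidates and of 25784 barcodes in all: 467 of 4670 candidates in the Lpar6 knockout, 517 of 5171 in the Cab39l knockout and 289 of 2887 in wild type. The 3 genes chose the cells, so their levels are a description with no test.

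The study measured RNA in single cells of the bladder urothelium, captured in droplets and read from the 3' ends of transcripts, in 3 groups: mice lacking Lpar6, a receptor for lysophosphatidic acid, mice lacking Cab39l, a scaffold of the LKB1 kinase complex, and wild-type mice. Each group is 1 library of cells pooled from 15 mice, so animals cannot be told apart. All 3 suspensions were made in the same way, with trypsin. Strain, age, sex and the deleted part of each gene are not given in the labels, and the study's title concerns the programme by which basal urothelial cells become luminal.

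The urothelium is a layered epithelium in which basal cells carry the keratins Krt5 and Krt15 and the transcription factor Trp63, and superficial umbrella cells carry Krt20 and cover their surface with uroplakin plaques. Rgs5 encodes a regulator of G protein signalling that speeds the return of G protein alpha subunits to their inactive state, and it is best known as a marker of pericytes, the mural cells of small vessels. Ttr encodes transthyretin, a carrier of thyroxine and of retinol-binding protein that the liver and the choroid plexus secrete in large amounts. Unc13c encodes a Munc13 protein that primes synaptic vesicles and is best known from the cerebellum. Scube2 encodes a secreted protein that helps to release hedgehog ligands from the cells that make them.

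Rgs5 (ENSMUSG00000026678) lies at chr1:169655501-169695813 on the plus strand, and Unc13c (ENSMUSG00000062151) at chr9:73479422-73968966, Scube2 (ENSMUSG00000007279) at chr7:109798676-109865679 and Fam25c (ENSMUSG00000043681) at chr14:34351881-34355433 lie on the minus strand. These positions are from GENCODE vM21 on GRCm38, the mm10 assembly. Scube2 and Fam25c were put forward as markers of the high cells with these data in view. The 4 sequences printed here are the promoters, 250 bases before to 50 after the start that RefSeq gives each gene on GRCm38.p6, of the marker genes other than Ttr, so that genes high in the same cells can be read side by side. They cover chr1:169655251-169655550 for Rgs5 on the plus strand and, on the minus strand, chr9:73968988-73969287 for Unc13c, chr7:109865630-109865929 for Scube2 and chr14:34355344-34355643 for Fam25c. Capitals mark matches, on either strand, to AGGTCA (a nuclear receptor element), AGAACA (a glucocorticoid receptor element), ACGTG (the hypoxia response core), GGGCGG (the GC box), AGATAA (bound by the zinc finger factors named after it) and TATAAA (the core promoter box), and overlapping matches run together. The RefSeq starts of Unc13c and Fam25c differ from the GENCODE starts above, and the Unc13c window lies wholly before its GENCODE start.
Rgs5: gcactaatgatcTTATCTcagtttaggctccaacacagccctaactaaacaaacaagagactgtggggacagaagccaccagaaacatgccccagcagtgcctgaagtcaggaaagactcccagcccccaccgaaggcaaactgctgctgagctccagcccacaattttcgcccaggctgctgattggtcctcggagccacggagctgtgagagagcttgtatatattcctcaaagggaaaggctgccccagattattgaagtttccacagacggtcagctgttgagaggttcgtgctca
Unc13c: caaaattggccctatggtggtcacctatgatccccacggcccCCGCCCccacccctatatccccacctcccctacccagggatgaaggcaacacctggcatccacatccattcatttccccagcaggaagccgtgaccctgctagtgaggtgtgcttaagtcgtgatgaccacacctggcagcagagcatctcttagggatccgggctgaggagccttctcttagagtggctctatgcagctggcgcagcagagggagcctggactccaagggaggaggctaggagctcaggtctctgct
Scube2: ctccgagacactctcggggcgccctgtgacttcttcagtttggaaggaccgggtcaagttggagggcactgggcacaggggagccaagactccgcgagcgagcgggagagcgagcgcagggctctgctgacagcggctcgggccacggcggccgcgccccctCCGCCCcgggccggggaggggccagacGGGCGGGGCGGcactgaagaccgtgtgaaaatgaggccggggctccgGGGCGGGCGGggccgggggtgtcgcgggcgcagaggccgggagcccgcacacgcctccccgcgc
Fam25c: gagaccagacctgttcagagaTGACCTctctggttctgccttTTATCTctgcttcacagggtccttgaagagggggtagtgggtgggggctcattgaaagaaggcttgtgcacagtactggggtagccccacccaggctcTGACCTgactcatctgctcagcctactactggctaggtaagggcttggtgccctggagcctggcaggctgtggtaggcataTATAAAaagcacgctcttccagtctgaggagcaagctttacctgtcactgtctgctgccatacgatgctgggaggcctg

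These 4 windows shared few of the letters searched. Rgs5 held 1 AGATAA and no other motif, Unc13c held 1 GGGCGG, Scube2 held 5 GGGCGG, and Fam25c held 2 AGGTCA, 1 AGATAA and 1 TATAAA. Of 32851 mouse promoter windows of the same length, 16.3% held AGGTCA, 19.0% AGAACA, 19.6% ACGTG, 35.7% GGGCGG, 11.2% AGATAA and 13.6% TATAAA. Promoters were found for 13 of 17 genes, the 4 above and the genes furthest higher in high cells that are named below. AGATAA was found in 5 of these 13 genes, GGGCGG in 7, AGGTCA in 4, AGAACA and TATAAA in 2 each and ACGTG in 1. A match says only that these letters are in the window.

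Facts of the 3 libraries bear on what follows. They held 8085 to 9406 barcodes and 101977647 to 175075246 UMIs. No Lpar6 UMI was present in the candidates of the Lpar6 knockout, and Cab39l stood at 31.6 CPM (counts of UMIs scaled to a common library total) in the Cab39l knockout, against 94.0 CPM in the Lpar6 knockout and 112 CPM in wild type. A 3' tag outside the deleted part would check nothing. Of the candidates, 2 to 8 barcodes were shared by any pair of libraries, and 1 barcode was a high cell in both the Cab39l knockout and wild type. The wild-type library stood apart from both knockouts: its high cells had a median of 13.4% mitochondrial UMIs against 8.21% in its rest, and 16.0% ribosomal protein UMIs against 24.1%. In the Lpar6 knockout these were 6.53% against 6.22% and 29.2% against 30.6%, and in the Cab39l knockout 6.63% against 6.08% and 28.7% against 30.8%.

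Rgs5 supplied most of the transcripts that chose the cells. It stood at 356 CPM (95% exact Poisson interval 346 to 366) in high cells of the Lpar6 knockout, 389 (379 to 398) in those of the Cab39l knockout and 681 (662 to 699.6) in those of wild type, against 92.1, 88.7 and 133 CPM in the rest. These intervals cover counting error only. Rgs5 gave 64.7, 84.98 and 84.2% of the UMIs of the 3 genes in high cells, in that order of libraries, and 98.7, 99.6 and 99.7% of high cells had an Rgs5 UMI, against 71.9, 66.5 and 67.2% of the rest. The median high cell held 10, 12 and 16 Rgs5 UMIs, against 2 in the rest of each library. Most cells of the rest thus held an Rgs5 UMI too, and the share that free RNA could give is set out with the lymphoid barcodes.

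Ttr and Unc13c were lower in level and less evenly spread over the high cells. Ttr stood at 139 CPM in high cells of the Lpar6 knockout, 49.4 in those of the Cab39l knockout and 72.1 in those of wild type, against 21.5, 9.35 and 15.2 CPM in the rest. A Ttr UMI was found in 71.7, 49.3 and 49.1% of high cells, and 1 Lpar6 knockout cell alone held 190 Ttr UMIs, 9.64% of the Ttr UMIs of that library's high cells. Unc13c stood at 54.5 CPM in high cells of the Lpar6 knockout, 19.3 in those of the Cab39l knockout and 55.4 in those of wild type, against 18.03, 4.21 and 10.1 CPM in the rest. All 3 genes were found together in 45.4, 18.8 and 29.4% of high cells, while 7.71, 34.4 and 25.6% held UMIs of 1 of them only. Rgs5 had the most UMIs of the 3 in 82.4, 96.5 and 97.6% of high cells, and Ttr in 16.3, 3.48 and 2.08%. Ttr was therefore the leading gene of a sizeable part of the high cells in the Lpar6 knockout alone, and that difference was not tested.

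The threshold lay within a continuous range. In the Lpar6 knockout the last cell inside held 3.651 UMIs of the 3 genes per 10000 and the first outside 3.649, in the Cab39l knockout 3.145 and 3.144, and in wild type 5.649 and 5.636. These limits rest on 10 to 21 UMIs a cell. When every cell was thinned to 10000 UMIs before scoring, 65.1, 66.0 and 75.8% of the high cells were chosen again. With the wild-type limit in every library, 2.998% of Lpar6 knockout candidates (95% exact interval 2.53 to 3.53) and 1.70% of Cab39l knockout candidates (1.37 to 2.09) would be high, against 10.0% in wild type.

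The genes still went together when none of them chose its own cells. In cells taken by Ttr and Unc13c alone, Rgs5 was 1.81-fold higher than in the other cells of the Lpar6 knockout, 1.92-fold in the Cab39l knockout and 2.26-fold in wild type. Ttr was 2.89-, 2.87- and 2.62-fold higher in cells taken by Rgs5 and Unc13c. Unc13c was 1.99-, 3.32- and 3.61-fold higher in cells taken by Rgs5 and Ttr. All 9 folds were above 1, and each was below the fold of the same gene when it took part in the choice. Scube2 stood at 58.3, 47.5 and 68.6 CPM in high cells of the Lpar6 knockout, the Cab39l knockout and wild type, against 36.5, 24.8 and 35.3 CPM in the rest. Fam25c stood at 1088 CPM in high cells of the Lpar6 knockout, 723 in those of the Cab39l knockout and 813 in those of wild type, against 655, 356 and 321 CPM. Neither gene's high cell levels overlapped its levels in the rest, but both were named as markers for these values, which therefore support nothing.

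**Figure D1:**
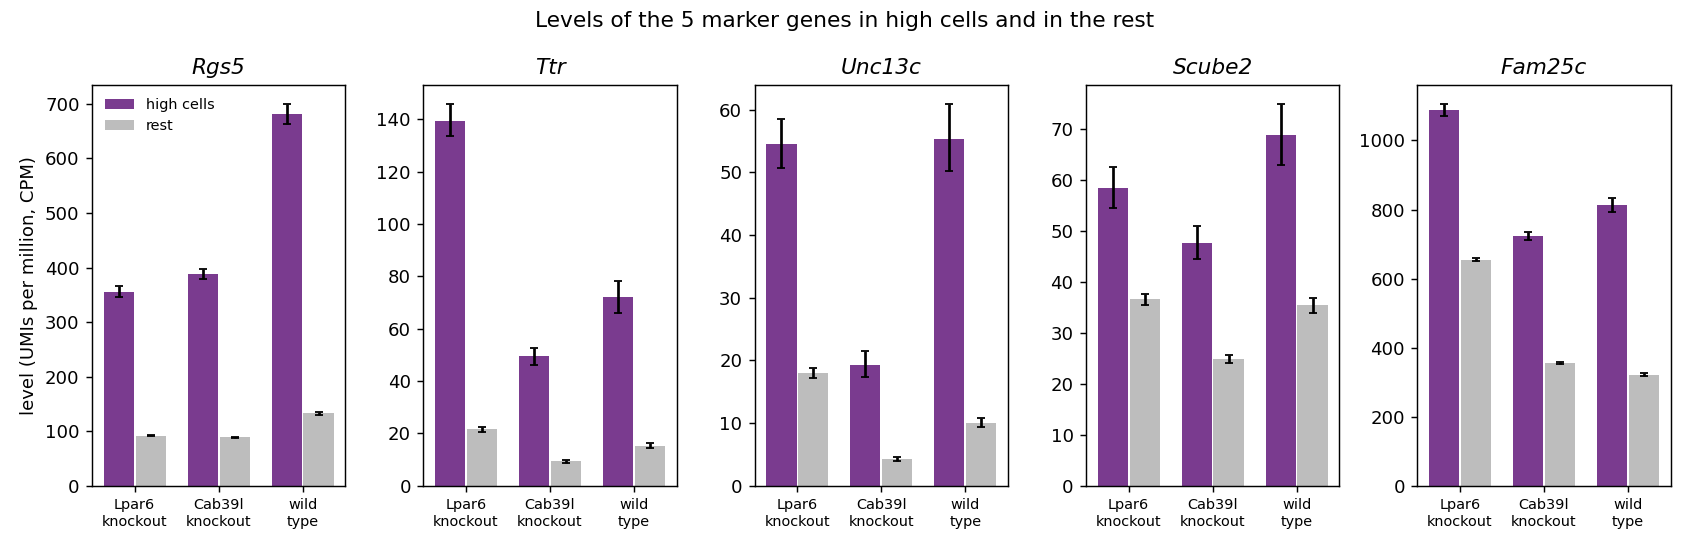
Levels of Rgs5, Ttr, Unc13c, Scube2 and Fam25c in CPM, as bars for high cells and for the rest of each library, with exact 95% Poisson intervals that cover counting error only; each panel has its own scale from 0. Rgs5 in high cells was 356 CPM in the Lpar6 knockout, 389 in the Cab39l knockout and 681 in wild type, against 92.1, 88.7 and 133 CPM in the rest, and the bar of the high cells is the taller one in all 15 pairs.

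The high cells held hardly any transcripts of most pericyte genes. Their urothelial genes are a description, since uroplakins admitted the cells of both states. The 9 urothelial markers summed to 19909 CPM in high cells of the Lpar6 knockout, 21057 in those of the Cab39l knockout and 16289 in those of wild type, against 16501, 16362 and 14452 CPM in the rest. Of the pericyte genes, Pdgfrb and Kcnj8 had at most 1 UMI in the high cells of any library, and Abcc9 and Higd1b had 0 in all 3. Notch3, a Notch receptor that pericytes also express, was not absent: it stood at 18.8, 20.6 and 26.6 CPM in high cells of the Lpar6 knockout, the Cab39l knockout and wild type, against 18.3, 19.95 and 25.4 CPM in the rest. These Notch3 levels differed between high cells and rest by less than they did between libraries (log2 -0.06, SE 0.07, edgeR adjusted p = 0.65). Smooth muscle genes summed to at most 0.336 CPM and endothelial genes to at most 1.18 CPM in high cells, with the endothelial genes Cdh5, Kdr, Flt1 and Emcn at 0 in all 3 libraries. Genes of liver and choroid plexus, the tissues best known for Ttr, summed to 2.19, 3.80 and 2.24 CPM in high cells of the Lpar6 knockout, the Cab39l knockout and wild type, against 2.06, 3.43 and 2.94 CPM in the rest, with Alb at 0 in the high cells of each.

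Transcripts of other sources differed between high cells and rest, often not in the same way in each library. Haemoglobin genes summed to 230 CPM in high cells of the Lpar6 knockout, 10.9 in those of the Cab39l knockout and 574 in those of wild type, against 111, 55.3 and 254 CPM in the rest, so the direction in the Cab39l knockout was the opposite of that in the others. Fibroblast genes, led by Dcn, summed to 13.3 CPM in wild-type high cells against 3.34 CPM in the rest, and to 1.06 and 0.336 CPM in high cells of the Lpar6 and Cab39l knockouts. Prostate and seminal vesicle genes, led by Spink1, summed to 73.7 CPM in high cells of the Cab39l knockout against 343 CPM in its rest, and to 2.62 CPM in the high cells of the Lpar6 knockout and 12.4 CPM in those of wild type. Epididymis genes summed to 2.07 CPM in high cells of the Cab39l knockout against 12.0 CPM in its rest. The sum of the myeloid genes was lower in the high cells of all 3 libraries, at 1.56, 4.98 and 40.0 CPM in the Lpar6 knockout, the Cab39l knockout and wild type, against 6.34, 14.7 and 70.1 CPM in the rest. Not every member went this way: Lyz2, the leading myeloid gene in wild-type high cells, was 17.9 CPM there against 13.6 CPM in the rest. Lymphoid genes summed to 11.4 CPM in wild-type high cells against 6.66 CPM in the rest. The part of these transcripts in the results was not tested.

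Lymphoid barcodes, which should lack these genes, give the share of barcodes with a UMI that free RNA can leave. After each cell was thinned to 2000 UMIs, Rgs5 was found in 46.5, 50.1 and 74.7% of high cells of the Lpar6 knockout, the Cab39l knockout and wild type, in 15.1, 13.2 and 19.5% of the rest and in 12.0, 1.96 and 5.45% of lymphoid barcodes. The 25 lymphoid barcodes of the Lpar6 knockout allow 2.55 to 31.2%, so the rest of that library is not set above background by this measure. Ttr was found in 20.1, 9.67 and 13.8% of high cells after thinning and in 4.09, 1.74 and 2.73% of the rest. Of lymphoid barcodes, 0, 0 and 0.711% held Ttr, with upper limits of 13.7, 3.55 and 2.06%. Ttr in the rest of either knockout is thus not set above background. Ttr in high cells lay above these limits, but Ttr took part in choosing these cells, which raises their shares. Unc13c was found in 10.7, 3.09 and 10.7% of high cells and in 2.93, 0.494 and 1.96% of the rest. Of lymphoid barcodes, 0, 0.980 and 0.474% held Unc13c, with upper limits of 13.7, 5.34 and 1.70%. For either knockout, Unc13c is thus set above background neither in the rest nor in high cells. In wild type its high cells lay above the limit, while the interval of the rest (1.47 to 2.57%) reached below it. The UMIs of Rgs5, Ttr and Unc13c chose the high cells, so a share of high cells above a limit follows in part from the choice. Such a share therefore does not set any of the 3 genes above background in high cells. Before thinning, the median depths were 29515, 35065 and 23339 UMIs in high cells, 27073, 30515 and 23702.5 in the rest and 4544, 5630 and 3950 in lymphoid barcodes, and Rgs5 was found in 19.2, 7.62 and 9.26% of the lymphoid barcodes.

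High cells lay near each other in each library without forming a group of their own. When cells were compared over 2000 variable genes without the 3 that chose them, high cells made up 20.8, 28.4 and 38.3% of the 15 nearest neighbours of a high cell in the Lpar6 knockout, the Cab39l knockout and wild type, against 7.41, 7.39 and 6.53% of the neighbours of a rest cell. A high cell with no high neighbour was found in 12.8, 6.58 and 5.88% of cases. Clusters rich in high cells differed by library. In the Lpar6 knockout, 32.8% of a cluster of 204 cells led by Fabp4 and Clu were high. In the Cab39l knockout, 29.3% of a cluster of 239 cells led by Xist, Gm42418, Lars2 and mitochondrial genes were high. In wild type 35.1% of a cluster of 268 cells led by Xist, Gm42418, Snhg11 and Lars2 were high. These clusters were shallow, with medians of 19034, 17934 and 17949 UMIs, against 27073, 30515 and 23702.5 in rest cells of the same libraries. The largest part of the Cab39l knockout high cells, 35.2%, lay in a cluster of 715 cells led by Xist, Egr1 and Jun, 25.5% of which were high. In clusters led by Krt15, 0.832% of 601 cells were high in the Lpar6 knockout, and 0.541% of 370 cells and 0 of 207 in wild type, the last of which allows up to 1.77%.

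The comparison of high cells with the rest of their library asked which other genes went with Rgs5, Ttr and Unc13c. UMIs were summed per library and state, and the 6 sums were tested with edgeR with library as a block, over 12940 genes and without the 3 genes. Of these, 226 genes were higher in high cells (1.75% of genes tested) and 247 were lower (1.91%), 3.66% in all, of which 140 and 156 were at least 1.5-fold apart. Genes higher in all 3 libraries by unscaled CPM and by the estimate made up 32.4% of those tested, and genes lower in all 3 made up 11.7%. The calls are TMM-scaled, with a median log2 of -0.015 over all tested genes, so these shares are not a balance of directions. When cells were chosen on one random part of their UMIs and measured on the other part, 201 genes were higher and 224 lower, 151 and 175 of them the same genes. Each gene's 2 sums from a library are paired by construction, and without that pairing edgeR called 0 genes, with 565 at an unadjusted p under 0.05. With 3 libraries of pooled mice, the p-values measure the spread between these libraries only.

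Among the genes higher in high cells were a lipid carrier, a glycosyltransferase and the umbrella keratin Krt20. Fabp4, a fatty acid-binding protein and a target of the nuclear receptor PPAR gamma in fat cells, stood at 432 CPM in high cells of the Lpar6 knockout, 206 in those of the Cab39l knockout and 174 in those of wild type, against 104, 74.8 and 76.5 CPM in the rest. Its levels did not overlap, and it had the largest estimate of the 15 named (log2 1.46, SE 0.18, edgeR adjusted p = 0.00603). Without wild type the estimate was 1.72 and the call was lost (edgeR adjusted p = 0.315), and it held under 16 of 22 other settings. Fam78b, of which little is known, stood at 23.6, 18.01 and 26.7 CPM in high cells of the Lpar6 knockout, the Cab39l knockout and wild type, against 10.8, 6.29 and 9.47 CPM in the rest (log2 1.26, SE 0.08, edgeR adjusted p = 0.000817).

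Krt20 separated the states in every library. Krt20 stood at 71.3, 56.6 and 73.9 CPM in high cells of the Lpar6 knockout, the Cab39l knockout and wild type, against 39.3, 29.0 and 51.4 CPM in the rest (log2 0.68, SE 0.11, edgeR adjusted p = 0.0187). The lowest high cell level, in the Cab39l knockout, was above the highest level of the rest, in wild type. Fut9, a fucosyltransferase that makes the Lewis x epitope, was 42.0, 46.5 and 108 CPM in high cells of the Lpar6 knockout, the Cab39l knockout and wild type, against 24.97, 24.6 and 37.9 CPM in the rest, with its largest difference in wild type. H2-Eb1, a class II MHC beta chain, was 82.9, 58.0 and 53.4 CPM in high cells of the Lpar6 knockout, the Cab39l knockout and wild type, against 48.5, 30.0 and 27.5 CPM in the rest (log2 0.78, SE 0.07, edgeR adjusted p = 0.00203).

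Another 8 of the 15 furthest higher had log2 values between 0.64 and 0.82. They were Ksr2, a scaffold of the Ras and MAP kinase pathway, the flavin monooxygenase Fmo2, Vgll3, a cofactor of TEAD transcription factors, the Rab11 effector Rab11fip5, the lipoprotein receptor Vldlr, the extracellular chaperone Clu, Gm2a, a lysosomal activator of ganglioside breakdown, and the diacylglycerol lipase Daglb. Scube2 and Fam25c complete the 15, at log2 0.74 and 0.92. Of the 15, only Rab11fip5 had high cell levels (33.8, 32.2 and 71.1 CPM) that overlapped those of the rest (23.2, 19.6 and 35.0 CPM). Across all tested genes, 5.35% had high cell levels wholly above those of the rest, and 250 of the 473 genes past the test in either direction did not overlap. The 15 were chosen for their folds, so their lack of overlap adds no support.

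Keratins of basal and intermediate cells were among the genes furthest lower in high cells. Krt15 stood at 20.04 CPM in high cells of the Lpar6 knockout, 178 in those of the Cab39l knockout and 83.5 in those of wild type, against 231, 1242 and 1186 CPM in the rest. It was the largest difference of the 30 genes named by size (log2 -3.49, SE 0.23, edgeR adjusted p = 0.000815), and the highest level of the high cells was below the lowest of the rest, as in 2.63% of all tested genes. Without wild type the estimate was -3.03 and the call was lost (edgeR adjusted p = 0.196). Krt5, the main basal keratin, stood at 114, 174 and 134 CPM in high cells of the Lpar6 knockout, the Cab39l knockout and wild type, against 195, 340 and 314 CPM in the rest (log2 -1.10, SE 0.13, edgeR adjusted p = 0.00526). Krt4 was 9.77, 22.6 and 23.7 CPM in high cells, in the same order of libraries, against 27.2, 85.9 and 67.0 CPM in the rest (log2 -1.78, SE 0.10, edgeR adjusted p = 0.000377).

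The other genes named by size as lower included enzymes and secreted proteins. Aldh3a1, which oxidises aldehydes, was 31.1, 35.8 and 38.3 CPM in high cells of the Lpar6 knockout, the Cab39l knockout and wild type, against 83.7, 140 and 143 CPM in the rest (log2 -1.88, SE 0.13, edgeR adjusted p = 0.000817). Trf, the iron carrier transferrin, was 34.3, 37.0 and 33.7 CPM in high cells, against 63.8, 74.4 and 109 CPM in the rest. Neither gene's levels overlapped. The neurite protein Nrn1 (log2 -1.48), the carbonyl reductase Cbr2 (-1.18), the NADPH oxidase subunit Cyba (-1.10), Ly6e (-0.92), the glucuronosyltransferase Ugt2b34 (-0.89), the growth factor binding protein Igfbp2 (-0.88), the phosphatase Ptprr (-0.80) and Gpnmb (-0.80, with overlapping levels) were also among the 15 furthest lower. Akr1b7 and Spink1 overlapped between states and were furthest apart in the Cab39l knockout, and of 22 other settings Akr1b7 passed the test in 13 and Spink1 in 6. Spink1, which inhibits trypsin, was 41.4 CPM in its high cells against 160 CPM in its rest, and 1.63 and 4.60 CPM in high cells of the Lpar6 knockout and wild type, against 1.86 and 5.46 CPM in the rest. Spink1 is one of the prostate and seminal vesicle genes whose sum was lower in the high cells of that library.

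**Figure D2:**
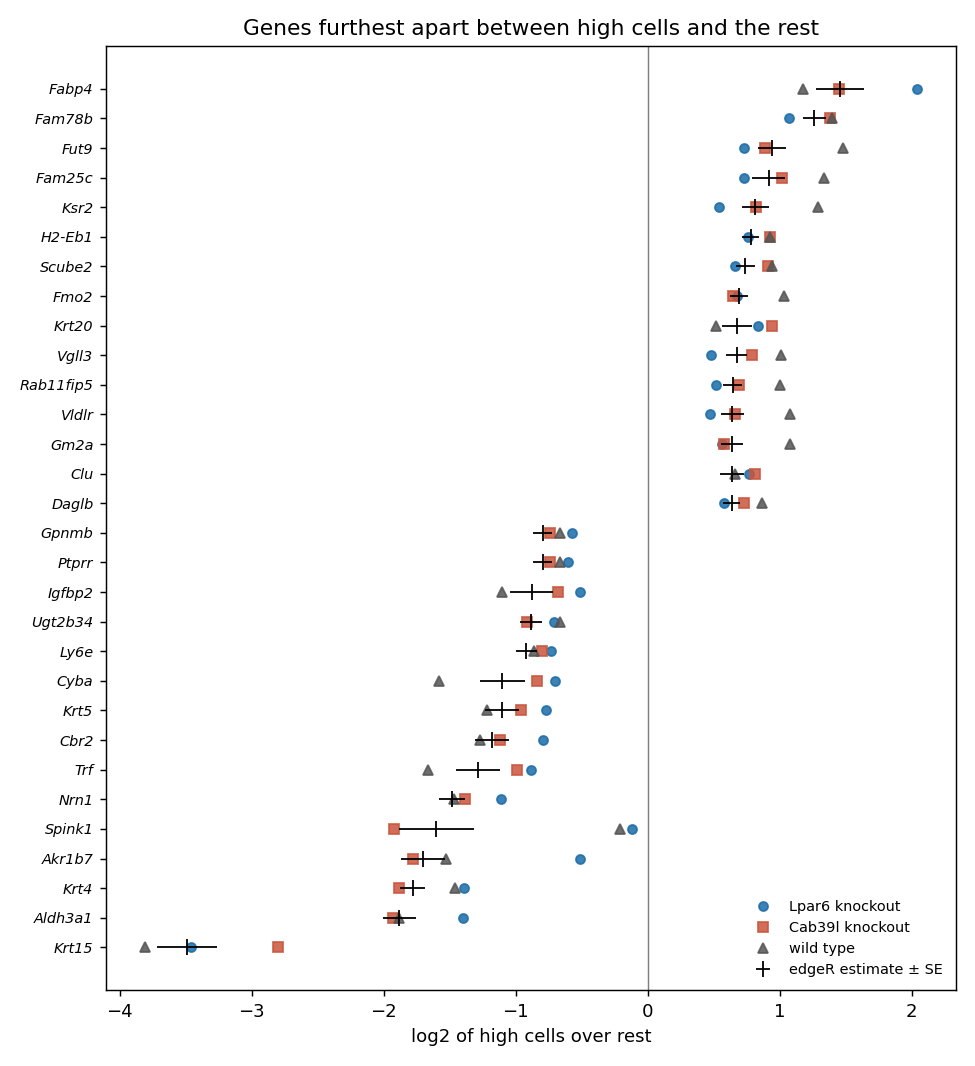
Log2 of high cells over rest for the 15 genes furthest higher and the 15 furthest lower among those past the test, with a marker for each library (CPM plus a pseudocount of 1) and a black tick with its SE for the edgeR estimate, which scales libraries by TMM and can lie outside the 3 markers. All 3 markers lie on the side of the estimate for every gene, and Krt15 lies furthest out at an estimate of -3.49, while Spink1 and Akr1b7 are near 0 or closer to 0 in the Lpar6 knockout.

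The high cells thinned out as basal genes rose. When the candidates of each library were ordered by their summed share of Krt5, Krt15 and Trp63 and divided into 5 equal parts, 19.5% of the lowest part of the Lpar6 knockout were high cells (95% exact interval 17.0 to 22.2) and 1.28% of the highest part (0.666 to 2.23). In the Cab39l knockout these were 27.2% (24.6 to 30.1) and 0.580% (0.213 to 1.26). In wild type they were 25.1% (21.6 to 28.8) and 0 of 577 cells, which allows up to 0.637%. The percentage fell at every step in each library. Of the high cells, 27.4, 30.4 and 43.9% in the Lpar6 knockout, the Cab39l knockout and wild type were also among the 10% highest in Krt20 and Upk2, and 2.14, 2.13 and 0.692% among the 10% highest in Krt5 and Trp63.

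**Figure D3:**
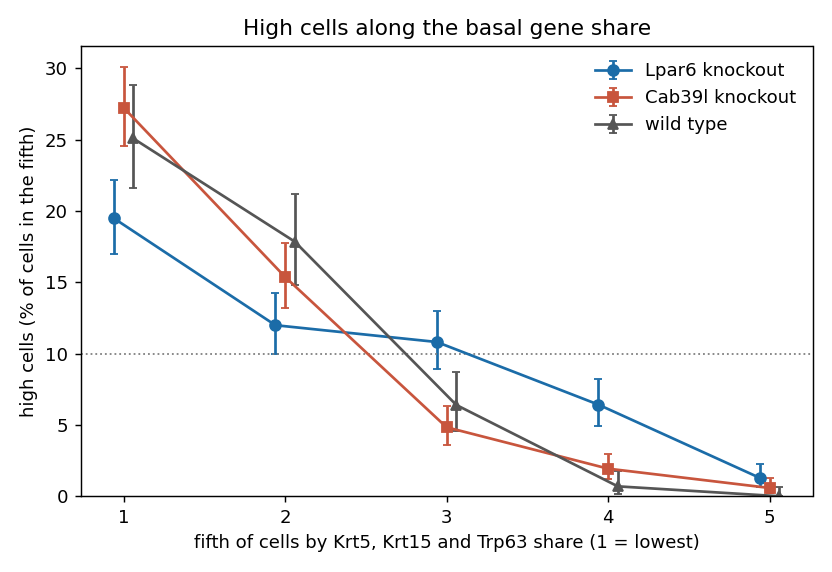
Percentage of high cells (vertical axis) among the candidates of each library in 5 equal parts ordered by the share of Krt5, Krt15 and Trp63, lowest at the left, with exact 95% binomial intervals and a dotted line at the 10% that the choice gives overall. Each line falls from left to right, from 19.5 to 1.28% in the Lpar6 knockout, 27.2 to 0.580% in the Cab39l knockout and 25.1 to 0% in wild type.

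Most of the other calls did not hold against a rest with as few basal transcripts. For this, chosen after the data were seen, 934, 517 and 289 rest cells of the Lpar6 knockout, the Cab39l knockout and wild type were matched to the high cells in the share of Krt5, Krt15 and Trp63, with medians of 194, 329 and 354 CPM against 194, 327 and 354 in the high cells and 324, 1362 and 1174 in all the rest. Then 4 genes were higher and 19 lower, against 226 and 247 before, and 3 and 19 of them were among the genes called before. The median log2 of the 226 genes was 0.38 in place of 0.67, and that of the 247 genes -0.44 in place of -0.75, with 218 and 231 of them on the same side. Against a rest matched in depth, 163 genes were higher and 190 lower. The part of the basal gene share in the other differences was not tested beyond this matching.

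The genes past the test against the matched rest were few and can be named. Fam78b stood at 23.6, 18.01 and 26.7 CPM in high cells of the Lpar6 knockout, the Cab39l knockout and wild type, against 13.8, 11.9 and 15.0 CPM in the matched rest (log2 0.63, SE 0.08, edgeR adjusted p = 0.0227). The other 3 higher genes were the cornified envelope gene Sprr2f (log2 0.90), the membrane protein Itm2a (1.74) and the endocytic adaptor Dab2 (1.04), named after their values were seen. Of the 30 genes named by size, Aldh3a1 and Krt4 (log2 -1.10 each), Cbr2 (-0.82), Nrn1 (-0.77), Ly6e (-0.65), Ugt2b34 (-0.54) and Ptprr (-0.50) stayed past the test as lower. Aldh1a1, Nqo1 and Ass1 were also lower, while 3 of the 19 were the male tract genes Svs5, Crisp1 and Defb42, which were almost confined to the Cab39l knockout. Fabp4 had an estimate of 0.77 (edgeR adjusted p = 0.39) and Krt20 0.38 (edgeR adjusted p = 0.39) against the matched rest. Krt15 was at -1.01 and Krt5 at -0.25 there. Both genes took part in choosing the matched cells, so their smaller differences follow from the matching and are no outcome of it.

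**Figure D4:**
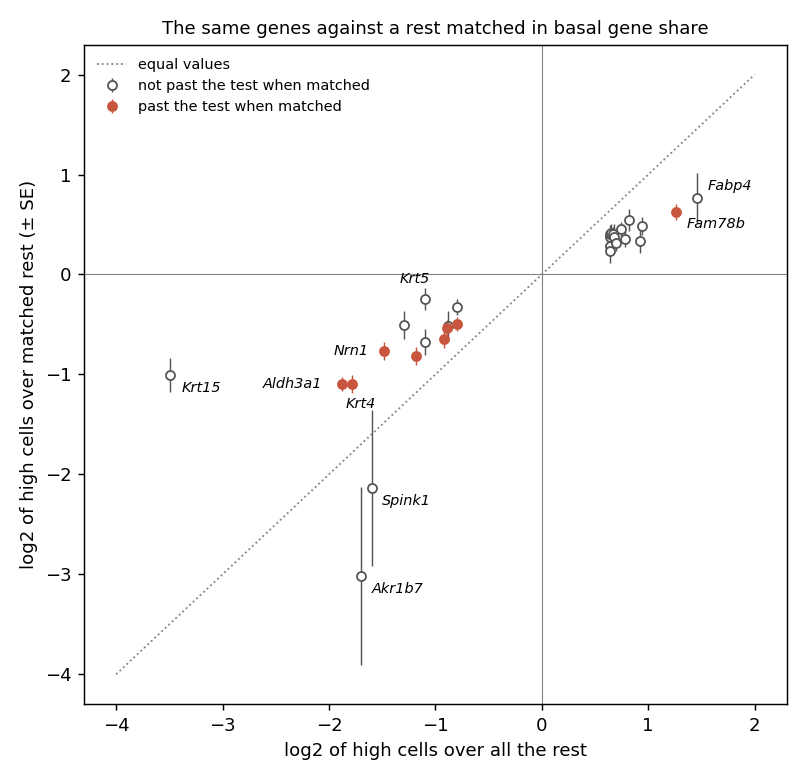
Log2 of high cells over all the rest (horizontal axis) and over a rest matched in the share of Krt5, Krt15 and Trp63 (vertical axis, with SE) for the 30 genes furthest apart, with the dotted line at equal values. Filled points passed the test against the matched rest, Fam78b on the higher side and 7 genes on the lower side. Spink1 and Akr1b7 lie below the dotted line with wide SEs. Krt15, at -1.01 against the matched rest and -3.49 against all the rest, and Krt5 helped to choose the matched cells. Their shift towards the horizontal line therefore follows from the matching.

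Counts in the gene lists are to be read against the 1.75% of all tested genes that were higher and the 1.91% that were lower. Beyond 4 members a list, and for members that did not pass, names were chosen after values were seen. Of 13 basal genes tested, 7 were lower and none higher, with a median log2 of -0.45 beside -0.02 over all genes: Krt15, Krt5, the adhesion receptor Cd44 (log2 -0.70), the hemidesmosome integrin Itgb4 (-0.59), the laminin chains Lama3 (-0.59) and Lamb3 (-0.40) and Bcam (-0.45). Trp63, the transcription factor of basal cells, was at -0.17 and did not pass the test (edgeR adjusted p = 0.334). Of 8 intermediate genes, 3 were lower, Krt4 and the gasdermins Gsdmc2 (-1.50) and Gsdmc3 (-1.14), and none was higher. Of 10 umbrella genes, Krt20 was higher and Upk3bl, at 0.142 to 0.336 CPM in high cells against 0.636 to 1.24 CPM in the rest, was lower, with a median of 0.04. None of 15 luminal transcription factors passed the test, with a median of 0.02 and Gata3 at 0.08.

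The uroplakins, which admitted cells of both states as candidates, were higher in high cells without passing the test. Upk3a stood at 8118, 7505 and 5635 CPM in high cells of the Lpar6 knockout, the Cab39l knockout and wild type, against 5947, 5233 and 4703 CPM in the rest. Upk2 stood at 705, 793 and 1618 CPM in high cells of the Lpar6 knockout, the Cab39l knockout and wild type, against 518, 537 and 769 CPM in the rest. Both were higher in the high cells of 3 of 3 libraries, and neither passed the test (edgeR adjusted p = 0.399 for Upk3a and 0.0617 for Upk2).

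Several enzymes that handle foreign compounds and several defence genes were lower, where 1.91% of all tested genes were lower and 1.75% higher. Of 22 xenobiotic and glutathione enzymes tested, 9 were lower and 1 was higher, with a median log2 of -0.44 beside -0.02 over all genes. Cyp2f2, a cytochrome P450, stood at 0.496, 1.40 and 1.18 CPM in high cells of the Lpar6 knockout, the Cab39l knockout and wild type, against 4.83, 12.5 and 13.9 CPM in the rest (log2 -3.39, SE 0.14, edgeR adjusted p = 0.000209). Aldh3a1, the carboxylesterase Ces2g (-0.96), Ugt2b34, Cyp1a1 (-0.83), the quinone reductase Nqo1 (-0.79), the glutathione transferases Gsta1 (-0.71) and Gsta3 (-0.58) and Akr1b8 (-0.68) were lower too, and the monooxygenase Fmo2 was the higher one. Of 11 defence and secreted genes, the antibacterial lectin Reg3g (-1.64), the alarmin Il33 (-1.16), Tmem176a (-0.84) and Tmem176b (-0.71) were lower and Clu was higher, with a median of -0.69. Krt5 and Krt15 were lower in the same high cells, and of the members named here only Aldh3a1, Ugt2b34 and Nqo1 stayed past the test against the matched rest.

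Few genes that act with the 3 that chose the cells passed the test. There were 4 calls, all lower, where 3.66% of all tested genes passed in either direction. So few calls are no result about these lists. Of 23 RGS and G protein genes tested, Rgs10, at 0.637, 0.615 and 0.658 CPM in high cells of the Lpar6 knockout, the Cab39l knockout and wild type against 1.73, 2.05 and 3.86 CPM in the rest, was the one gene past the test (log2 -1.97, SE 0.24, edgeR adjusted p = 0.00617). The family members Rgs2 (-0.63), Rgs3 (0.04) and Rgs12 (-0.15) and the alpha subunits Gnai2 (-0.17) and Gnaq (0.16) did not pass. Of 16 retinoid and thyroid hormone genes, Rbp4, the retinol-binding protein that transthyretin carries (-1.91), and Aldh1a1, which makes retinoic acid (-1.54), were lower. Rbp4 stood at only 0.708, 0.447 and 0.395 CPM in high cells, in the same order of libraries, against 1.41, 1.62 and 3.15 CPM in the rest. The thyroid hormone receptors Thra (-0.14) and Thrb (-0.17) did not pass. Of 31 genes of vesicle priming and fusion, Unc13b (-2.07), at most 0.263 CPM in high cells, was lower and none was higher. None of 9 hedgehog genes, the pathway in which Scube2 acts, passed the test, with a median of -0.13, the ligand Shh at -0.22 and the receptor component Smo at -0.60.

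Class I antigen presentation, cell cycle, ion channel and clock genes held 2 or 3 calls a list, where 1.75% of all tested genes were higher and 1.91% lower. Of 15 genes of class I antigen presentation, 3 were higher, the MHC activator Nlrc5 (log2 0.65), H2-Q7 (0.63) and the peptide transporter Tap1 (0.31), with a median of 0.09. H2-Q7 has close copies among which 3' tags may be split. Of 13 cell cycle genes, the inhibitor Cdkn2a (1.28) and the kinetochore protein Cenpf (0.87) were higher, while the proliferation gene Mki67 (0.98) did not pass (edgeR adjusted p = 0.143). Of 19 ion channels and transporters, the potassium channel Kcnj15 (2.37, at most 1.57 CPM) and the carbonic anhydrase Car2 (0.31) were higher and the potassium channel Kcnn4 (-2.05) was lower. Of 17 clock and glucocorticoid genes, the kinase Sgk1 (-0.68), Nr1d1 (-0.52) and Dbp (-0.45) were lower.

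Single members passed in several other lists. Tgfbr3 (log2 -1.30) and Tgfb1 (-0.63) were lower and Bmp3 (0.37) higher of 16 TGF-beta and BMP genes. The tight junction protein Cldn8 was higher (0.48, of 16), as was Fabp4 among 22 PPAR targets, whose median of -0.02 was that of all genes. The Notch ligand Jag2 (-1.02, of 15), the stress gene Ier3 (-0.52, of 18 immediate early genes), the interferon-induced Ifitm3 (-0.63, of 12), the cornified genes Dmkn (-0.53) and Sbsn (-0.39, of 8) and the hypoxia targets Hk2 (-0.49) and Vegfa (-0.40, of 18) were lower. The long noncoding RNA Meg3, among 10 nuclear RNAs, stood at 7.65, 2.35 and 5.79 CPM in high cells of the Lpar6 knockout, the Cab39l knockout and wild type, against 0.548, 0.372 and 1.03 CPM in the rest (log2 2.96, SE 0.28, edgeR adjusted p = 0.00258). Meg3 passed under 14 of 22 other settings. Against the rest matched in basal gene share it did not pass (log2 1.76, SE 1.45, edgeR adjusted p = 0.668). That matched rest held 0.227, 0 and 7.76 CPM, in the same order of libraries. In wild type, Meg3 was thus lower in high cells than in the matched rest. None of 14 heat shock genes, 20 cholesterol synthesis genes or 13 mitochondrially encoded genes passed. The lists were chosen with earlier results of these data known, and nothing here sets one list apart from the others.

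**Figure D5:**
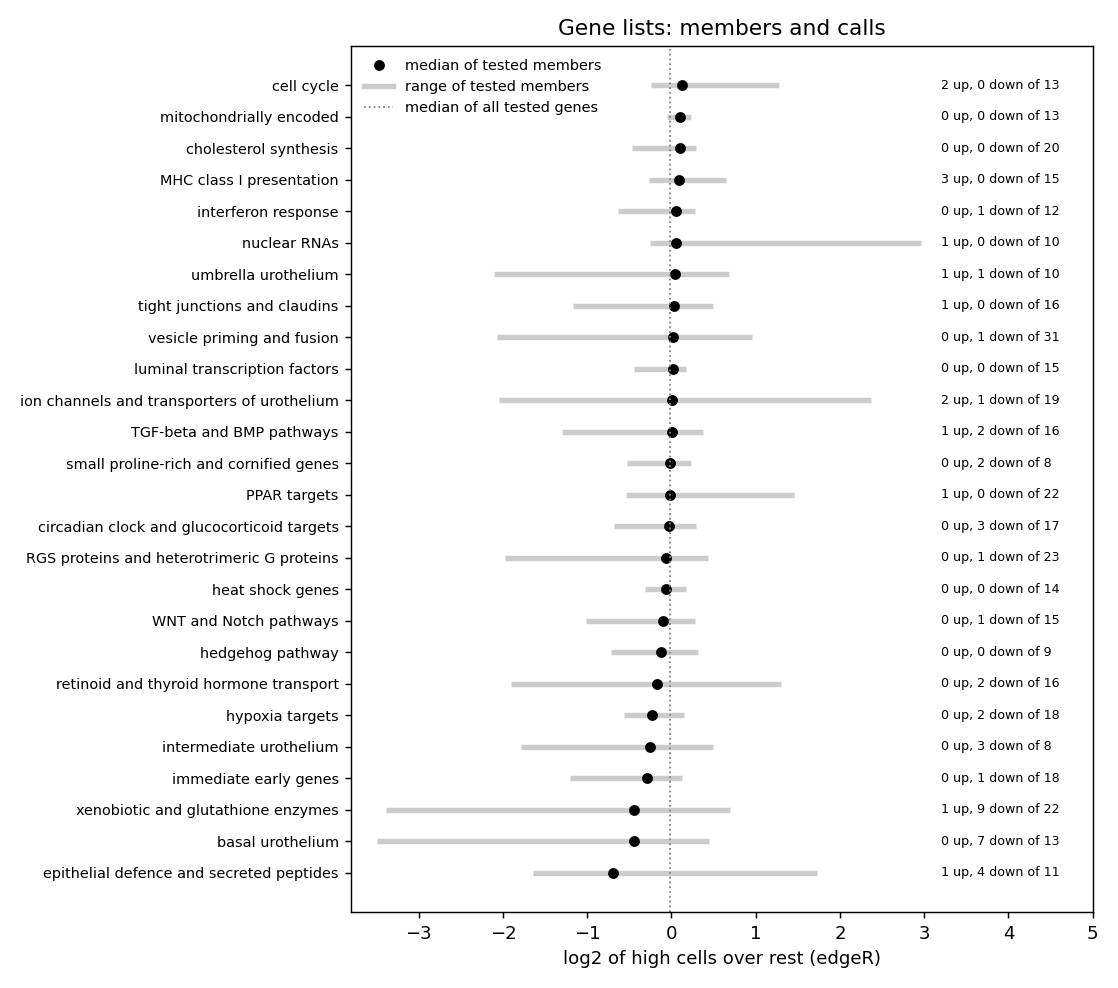
Log2 of high cells over rest for 26 gene lists, with the median (point) and the range (bar) of the tested members, the counts of members past the test in each direction at the right and a dotted line at the median of all tested genes. The lists at the bottom, epithelial defence, basal urothelium and xenobiotic enzymes, have medians of -0.69, -0.45 and -0.44, and the most members past the test, 9 lower and 1 higher of 22, are in the xenobiotic list.

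High cells were more often of the kind that carries Xist. Pooled mice of both sexes can be seen in each library: cells with at least 5 Xist UMIs and no Y-linked UMI made up 68.3% of high cells of the Lpar6 knockout (95% exact interval 63.9 to 72.5), 55.5% of those of the Cab39l knockout (51.1 to 59.9) and 52.9% of those of wild type (47.0 to 58.8), against 54.6, 31.6 and 43.5% of the rest. The Y-linked genes Eif2s3y (log2 -0.64, edgeR adjusted p = 0.0049) and Ddx3y (-0.58, edgeR adjusted p = 0.00603) were lower in high cells, and Xist was at 0.50 (edgeR adjusted p = 0.0781). Within the cells with Xist and no Y-linked UMI, 130 genes were higher and 139 lower, 120 and 131 of them called before. Within the cells with a Y-linked UMI and little Xist, 116 were higher and 150 lower, 107 and 122 of them called before. Both restrictions were chosen after the data were seen, and leave fewer cells.

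Length and mitochondrial RNA moved with the high cells in wild type. Across 12931 genes, which are not independent replicates, the rank correlation of the log2 of high cells over rest with the longest transcript was 0.06 in the Lpar6 knockout, 0.12 in the Cab39l knockout and 0.39 in wild type. Without the wild-type library 1164 genes were higher and 1182 lower, and 225 of the 226 and 241 of the 247 genes were among them. With at most 10% mitochondrial UMIs 1068 were higher and 1087 lower, and with a rest matched in mitochondrial share 884 and 915. The medians of the 226 and the 247 genes were 0.66 and -0.67 without wild type, close to the 0.67 and -0.75 of all 3 libraries.

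Within the high cells each knockout was set against wild type, with 1 library per group, no test and no replicate check. The share taken as high is 10% in every library by construction, and both knockouts are set against the same wild-type cells. The score limit therefore differed, at 3.651 UMIs per 10000 in the Lpar6 knockout, 3.145 in the Cab39l knockout and 5.649 in wild type. Levels of genes that move with the score, such as Krt15, are thus compared at unlike limits, and the part of this was not tested. Over all candidates, Rgs5 stood at 121 CPM (119 to 123) in the Lpar6 knockout and 123 (121 to 124) in the Cab39l knockout, against 187 (184 to 190) in wild type. Ttr over all candidates stood at 34.6 CPM (33.6 to 35.6) in the Lpar6 knockout and 13.9 (13.3 to 14.5) in the Cab39l knockout, against 20.9 (19.9 to 21.9) in wild type. Unc13c stood at 22.1 CPM (21.3 to 22.9) in the Lpar6 knockout and 5.92 (5.55 to 6.31) in the Cab39l knockout, against 14.6 (13.8 to 15.5) in wild type. The order of the libraries thus differed from gene to gene, with Rgs5 highest in wild type and Ttr and Unc13c highest in the Lpar6 knockout.

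The knockouts lay below wild type for most genes of the high cells. The median log2 was -0.51 in the Lpar6 knockout over 5913 genes and -0.46 in the Cab39l knockout over 5928, counting genes that summed to at least 50 UMIs in the pair and reached 20 CPM in either member. In the Lpar6 knockout 93 genes were at least 2-fold higher (1.57%) and 1080 at least 2-fold lower (18.3%), and in the Cab39l knockout 84 (1.42%) and 1107 (18.7%). With TMM scaling the split was 684 higher and 55 lower in the Lpar6 knockout and 681 and 44 in the Cab39l knockout, so which direction holds more genes depends on the scaling. Of the 93 and 1080 genes of the Lpar6 knockout, 4 and 126 were also 2-fold apart in the rest, and of the 84 and 1107 of the Cab39l knockout 3 and 239. Of these genes, 1 of the 1080 and none of the 93, the 84 or the 1107 lay on the other side or at 0 in the rest, whose medians over the same genes were -0.34 for Lpar6 and -0.33 for Cab39l.

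In high cells of the Lpar6 knockout the genes furthest above wild type were Dmtn, an actin-bundling protein, at 22.2 CPM (19.8 to 24.8) against 4.21 CPM (2.88 to 5.94), the phosphatase Hddc3 at 46.1 against 10.4 CPM and the membrane-anchored Ly6k at 378 against 94.6 CPM. Eif6, a factor in ribosome assembly, was 111 against 29.3 CPM and Pmvk, of the mevalonate pathway, 42.0 against 12.2 CPM. Far below were Lars2, a mitochondrial leucyl-tRNA synthetase, at 40.9 CPM (37.7 to 44.4) against 304 CPM (292 to 317), the linker histone Hist1h1e at 6.51 against 47.3 CPM, the metalloprotease Adam28 at 18.9 against 108 CPM and Krt15 at 20.04 against 83.5 CPM. Krt15 was below wild type in the rest as well, at 231 against 1186 CPM. The other genes named here also differed in the rest, so these differences are not particular to the high cells. Dmtn was 21.0 against 4.06 CPM there, Hddc3 42.6 against 15.0 and Ly6k 290 against 80.5. Lars2 was 45.2 against 228 CPM, Hist1h1e 8.26 against 28.6 and Adam28 19.5 against 95.1. Eif6 (118 against 66 CPM) and Pmvk (33.4 against 19.2 CPM) were less far apart in the rest. Fabp4, by contrast, was above wild type in high cells, at 432 CPM (421 to 443) against 174 CPM (165 to 184), and at 104 against 76.5 CPM in the rest. Lpar6 itself had 0 UMIs in these high cells, which allows up to 0.261 CPM, against 15.3 CPM in those of wild type.

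In high cells of the Cab39l knockout the genes far above wild type included Spink1 at 41.4 CPM (38.5 to 44.5) against 4.60 CPM (3.21 to 6.401), Eif6 at 103 against 29.3 CPM, the glutathione transferase Gstp1 at 83.3 against 26.2 CPM and the cornified envelope gene Sprr2a3 at 1277 against 471 CPM. Furthest below were Hist1h1e at 3.24 CPM against 47.3 CPM, Lars2 at 39.8 against 304 CPM, Cab39l itself at 34.2 CPM (31.6 to 37.0) against 149 CPM (140 to 158), the complement inhibitor Cd59a at 9.06 against 36.3 CPM and the acetyltransferase Kat6a at 12.7 against 47.7 CPM. Krt15 was 178 CPM (172 to 184) in high cells of the Cab39l knockout against 83.5 CPM (77.1 to 90.3) in those of wild type, and near equal in the rest at 1242 against 1186 CPM. The other genes named here differed from wild type in the same direction in the rest, so these differences are not particular to the high cells. Spink1 was 160 against 5.46 CPM there, Hist1h1e 3.13 against 28.6 and Lars2 40.0 against 228. Cab39l was 31.3 against 108 CPM and Cd59a 6.97 against 26.8. Less far apart in the rest were Eif6 (108 against 66 CPM), Gstp1 (99.7 against 51.7), Sprr2a3 (999 against 597) and Kat6a (13.4 against 34.3). Gstp1, Sprr2a3 and Hist1h1e have near-identical copies, so their values are uncertain. Lars2 was listed here with the nuclear RNAs and led clusters together with Gm42418. Whether the Lars2 tags come from the transcript of the synthetase was not tested in either knockout or in wild type. Mitochondrial and ribosomal shares and the score limit differed between these high cells as given above, and genotype and library cannot be told apart.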

How the data were processed

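RNA of single bladder urothelial cells was read for 3 libraries, 1 each of Lpar6 knockout, Cab39l knockout and wild-type mice, each pooled from 15 mice. The deposited files hold counts of UMIs per gene and barcode, made with Cell Ranger 3.0.2 on mm10, per the submitters' processing notes, while the annotation release was not given in the sources used here. Of 31053 gene IDs, 31011 (99.9%) were found in GENCODE vM21. Libraries held 101977647 to 175075246 UMIs, and intervals are exact at 95% and cover counting error only.

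The members, gene lists and tests were chosen with earlier results of these data known. UMIs of high cells and of the rest were summed per library and tested with edgeR 4.0.16 (quasi-likelihood, TMM scaling, its filter on low counts, library as a block) in R 4.3.3, with Benjamini-Hochberg adjustment over all tested genes and a threshold of 0.05. Rgs5, Ttr and Unc13c counted in library sizes and were not tested. Values per library are unscaled CPM, while edgeR estimates are TMM-scaled. The pairing comes from the design, since both sums are from the same library. Within high cells each knockout was set against wild type with no test, 1 library a group.

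Named genes were the 5 markers, the 15 furthest higher and 15 furthest lower genes past the test with the same direction in 3 libraries and a mean of at least 20 CPM in the higher state (leaving out mitochondrial, ribosomal, haemoglobin and unnamed genes), up to 4 members past the test of each of 26 lists, or the 2 most abundant where none passed, the 5 furthest in each direction of genes past 2-fold in each knockout, and Lpar6 and Cab39l. Doublets were not removed. The caller Scrublet, in scanpy 1.11.5, marked only 3, 1 and 1 cells by its own threshold, and whether it had worked was not tested. Leaving out the 6% of cells with the highest scores was an alternative. Python 3.11.15, numpy 2.4.6, scipy 1.17.1, pandas 2.3.3, scikit-learn 1.9.0 and matplotlib 3.10.9 were used, and DESeq2 1.42.0 for an alternative. The test was tested on simulated data. Other alternatives changed the scaling, the filter, the block, the libraries, the choice of high cells and the choice of rest, and 4 of the 22 refits were chosen after seeing the data. Some named genes are not reported here.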

Additional observations from a re-analysis of the deposited data

Results flagged for a closer look

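Of the listed genes, 2 moved in opposite directions in different libraries, with intervals on opposite sides of 1, and the difference between libraries was not tested. Fdps, of the mevalonate pathway, was 1.10-fold in high cells over the rest in the Lpar6 knockout (95% interval 1.06 to 1.14) and 1.13-fold in the Cab39l knockout (1.10 to 1.17), and 0.866-fold in wild type (0.806 to 0.930). Hbb-bs, a haemoglobin gene of red cells, was 1.77-fold in the Lpar6 knockout (1.69 to 1.86) and 2.06-fold in wild type (1.97 to 2.15), and 0.189-fold in the Cab39l knockout (0.157 to 0.227).

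Barcodes with over 20% mitochondrial UMIs were never candidates. Those that met the candidate limits on genes, UMIs and uroplakins held Rgs5 and Unc13c above the level of the rest in each library. Ttr was above the rest in those of the Lpar6 knockout. In 93 such barcodes of the Lpar6 knockout, Rgs5 was 438.231 CPM, Ttr 70.43 CPM and Unc13c 108.688 CPM, against 92.1, 21.5 and 18.03 CPM in the rest. In 212 of the Cab39l knockout, Rgs5 was 246.279 CPM and Unc13c 23.2002 CPM, against 88.7 and 4.21 CPM in the rest, while Ttr was 10.7 CPM (7.22 to 15.3) against 9.35 CPM. In 577 of wild type, Rgs5 was 429.796 CPM and Unc13c 64.2492 CPM, against 133 and 10.1 CPM in the rest, while Ttr was 15.9 CPM (13.2 to 19.0) against 15.2 CPM.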

How the results depend on the processing

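Beside the 226 genes higher and 247 lower, counts beyond 1.5 times these were 373 lower with no filter on low counts, 654 and 664 for the top 20%, 142 and 140 with uroplakins of at least 0.5%, 1068 and 1087 with at most 10% mitochondrial UMIs, 560 and 539 for Ttr alone and 482 and 504 for Unc13c alone. Of the settings chosen after seeing the data, a rest matched in mitochondrial share gave 884 and 915, one matched in basal gene share 4 and 19, cells with Xist 130 and 139, and cells with a Y-linked UMI 116 and 150. Leaving out 1 library gave 232 to 1164 higher and 288 to 1182 lower. Without the replicate block, that is without the pairing of sums by library, edgeR called 0 and 0, with 565 genes at an unadjusted p under 0.05. The median-of-ratios scaling, DESeq2 (183 and 239), the top 5%, thinned scores, a choice on other UMIs, a depth-matched rest, doublet removal and Rgs5 alone stayed within 1.5 times.

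The mean log2 of Rgs5, 2.15, was 1.72 with cells chosen on other UMIs, 1.91 with thinned scores and 0.99 when Rgs5 did not choose. That of Ttr, 2.45, was 2.20 on other UMIs, 2.77 for the top 5%, 3.03 with the wild-type limit and 1.48 when Ttr did not choose, and that of Unc13c, 2.09, was 1.53 when it did not. With thinned cells, high neighbours made up 26.0% in the Cab39l knockout and 35.1% in wild type. In high cells, TMM gave 684 higher and 55 lower genes in the Lpar6 knockout and 681 and 44 in the Cab39l knockout, and a pseudocount of 5 CPM gave 647 and 652 lower.

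Signs turned for 8 named genes, and the cause was not tested. Akr1b7 was 0.137 with Ttr alone. Msmo1 was -0.018 unfiltered, -0.031 to 0.083 with 1 library left out (negative without the Lpar6 knockout), -0.003 thinned, -0.014 basal-matched, -0.020 with uroplakins of 0.5% and -0.034 with Rgs5 alone. Fdps was 0.010 without the block, -0.158 to 0.102 with 1 library left out (positive without wild type), 0.038 for the top 20%, 0.121 mitochondria-matched, 0.150 at 10% mitochondrial, 0.130 with Ttr alone and 0.066 with Unc13c alone. Gata3 was -0.014 to 0.138 with 1 library left out (negative without wild type) and -0.006 at 10% mitochondrial. Hsp90ab1 was -0.080 to 0.023 with 1 library left out (positive without wild type), 0.079 mitochondria-matched, 0.064 at 10% mitochondrial and 0.047 with Ttr alone. Hspa8 was 0.062 in cells with a Y-linked UMI and 0.038 with Ttr alone. mt-Atp6 was -0.110 and mt-Co1 -0.012 mitochondria-matched, and mt-Atp6 -0.006 at 10% mitochondrial. None of these but Akr1b7 had passed the test. Genes near 1 CPM rest on few UMIs in the high cells.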
